A study of Ovis aries with 24 samples.

Results

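The genes described here are the ligands, receptors and antagonists of the Wnt pathway, together with the core components that carry its signal, in cultured sheep pituitary cells. A feature was included when its gene name matched a fixed set of Wnt symbols, whatever its values, and 52 of the 27054 features in the count tables did. They are 18 Wnt ligands, 8 Frizzled receptors, the coreceptors LRP5 and LRP6, the R-spondin receptors LGR4 and LGR5, 4 R-spondins, the ubiquitin ligase RNF43, 3 Dickkopf and 4 secreted Frizzled-related antagonists, KREMEN1 and KREMEN2, 5 intracellular components (CTNNB1, APC, AXIN1, AXIN2 and NKD1) and the transcription factors TCF7, TCF7L2 and LEF1. Of the symbols that the same set names, DKK4, FZD8, FZD10, LGR6, NKD2, TCF7L1, WNT10B and ZNRF3 are not analysed here.

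All libraries came from pituitaries of ovariectomized Western white faced ewes, so the donors of every group lacked ovaries. Dispersed cells were kept on plastic and were given, 24 hours after dispersal, an adenovirus that directs green fluorescent protein (GFP) to gonadotropes, the pituitary cells that secrete luteinizing hormone and follicle-stimulating hormone; which promoter drives GFP is not given in the sources used here. The 4 groups, with 6 libraries each, were sorted cells given 10 nM estradiol (E2) for 6 hours, sorted cells given the ethanol vehicle, unsorted cells given E2 and unsorted cells given vehicle, and treatment began 3 days after infection. Sorted cells are the GFP-positive cells collected by flow cytometry, and unsorted cells are the mixed anterior pituitary culture. The number of animals behind each library is not given, so p-values measure the spread between libraries, which may be partly technical.

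Wnt ligands are secreted, lipid-modified proteins that bind Frizzled receptors on the cell surface. With an LRP5 or LRP6 coreceptor, the canonical branch stops the APC and axin complex from degrading beta-catenin (CTNNB1), which then works with TCF/LEF factors on target genes; ligands such as WNT5A are better known for branches that do not use beta-catenin. Secreted Frizzled-related proteins bind the ligands, Dickkopf proteins bind the LRP coreceptors and act together with Kremen receptors, and R-spondins acting through LGR receptors protect Frizzled from the ubiquitin ligase RNF43. In the pituitary, Wnt signalling is known for its part in the growth of the gland during development and, in gonadotropes, beta-catenin is known as a partner of the receptors and factors that drive gonadotropin genes.

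Total counts were 4185088 to 6189629 reads in the 12 libraries numbered 1 to 3, the shallow set, and 19216735 to 37042448 in the 12 numbered 4 to 6, the deep set. The sets may be batches, although the labels name none, and each group holds 3 libraries of each. Levels are counts divided by library size (CPM), with library sizes scaled by the trimmed mean of M values (TMM), and because transcript lengths are not used here, levels are compared between groups and not between genes. The label of the sort was checked on markers. The summed level of 5 gonadotrope markers was 2619 to 5077 CPM in sorted E2 and 280 to 1548 CPM in unsorted E2 libraries, and 2467 to 5561 CPM in sorted vehicle and 286 to 1379 CPM in unsorted vehicle libraries, and all 5 were higher in sorted cells under both treatments. Markers of other cells remained after the sort. The summed level of 10 fibroblast and pericyte markers was 945 to 2403 CPM in sorted E2 and 6371 to 13193 CPM in unsorted E2 libraries, and 942 to 1979 CPM in sorted vehicle and 5625 to 13863 CPM in unsorted vehicle libraries. Of 6 markers of lactotropes, somatotropes, thyrotropes and corticotropes, the other hormone-secreting cells, the summed level had medians of 156004 CPM in sorted E2 and 94628 CPM in unsorted E2 libraries, and 160304 CPM in sorted vehicle and 88682 CPM in unsorted vehicle libraries, so transcripts of other hormone cells were abundant in the sorted libraries. The summed level of 7 folliculostellate and stem cell markers was 1090.0 to 1589 CPM in sorted E2 and 1393 to 1968 CPM in unsorted E2 libraries, and 1268 to 1821 CPM in sorted vehicle and 1481 to 1969 CPM in unsorted vehicle libraries. Most of that sum is ALDH1A1, with medians of 1251 and 1406 CPM in sorted E2 and sorted vehicle libraries. No marker on any list was at 0 in all libraries of a group.

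The first question was how far Wnt genes differ between labelled gonadotropes and the mixed culture they were taken from. Most of those measured were lower in sorted cells. Of the 29 members tested with vehicle, 20 were lower and 1, WNT11, was higher, and 8 were not called. With E2, 19 of 30 were lower, 2 (WNT11 and AXIN2) were higher and 9 were not called. A gene was called where the edgeR quasi-likelihood test gave p under 0.05 after Benjamini-Hochberg adjustment over the whole table. Over all genes tested, 25.8% were called lower and 24.4% higher with vehicle, and 26% lower and 25.8% higher with E2. The median log2 fold change, sorted over unsorted, was -1.05 among the tested members and 0.016 among all 14468 genes tested with vehicle, and -0.90 and 0.014 (14545 genes) with E2. The 2 sort comparisons use different libraries, although same-numbered libraries deviated together. With the replicate number as a block, 3 members were higher and 20 lower with vehicle (32.5% and 31.1% of all genes tested), and 4 higher and 20 lower with E2 (33.9% and 31.8%). Of 29 members tested in both comparisons without the block, 19 were called lower in both and WNT11 higher in both. The share of all genes called in both comparisons was not computed, so this count gives no result about the members as a set. The sorted and unsorted ranges did not overlap for 15 members with vehicle and 15 with E2, all lower in sorted cells, against 16.4% and 17.1% of all genes tested. Of the called members that could be tested in each depth set alone, all 20 with vehicle and all 20 with E2 had the same sign in both sets. Both sets are parts of the libraries behind the calls, so this is not independent of them. With vehicle 18 were called in both sets (not FZD7 and WNT9A), and with E2 19 were (not WNT11). Over all genes tested with vehicle, the shallow set alone called 3397 higher and 3576 lower of 13424. The deep set called 5104 and 5319 of 15625. With E2 the calls were 3590 and 3704 of 13414 in the shallow set, and 5050 and 5296 of 15606 in the deep set. The share of all genes called in both sets was not computed. Fits of a single depth set, here and below, include the replicate number as a block. In bulk RNA, fewer cells of a type and less RNA per cell cannot be told apart, and this holds for every sort result. Beside these differences, 6 of the 9 fibroblast and pericyte markers tested were lower in sorted vehicle cells and 1 was higher (median log2 fold change -2.67), 5 of 7 folliculostellate and stem cell markers were lower and 2, among them ALDH1A1, higher (-2.62), and 4 of 6 endothelial markers were lower and none higher (-1.26). Of the markers of other hormone-secreting cells 4 of 6 were higher and none lower (0.86), and of 5 tested immune markers 2 were lower and 1 higher (-0.58). The part of these cell types in the Wnt results was not tested.

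**Figure D1:**
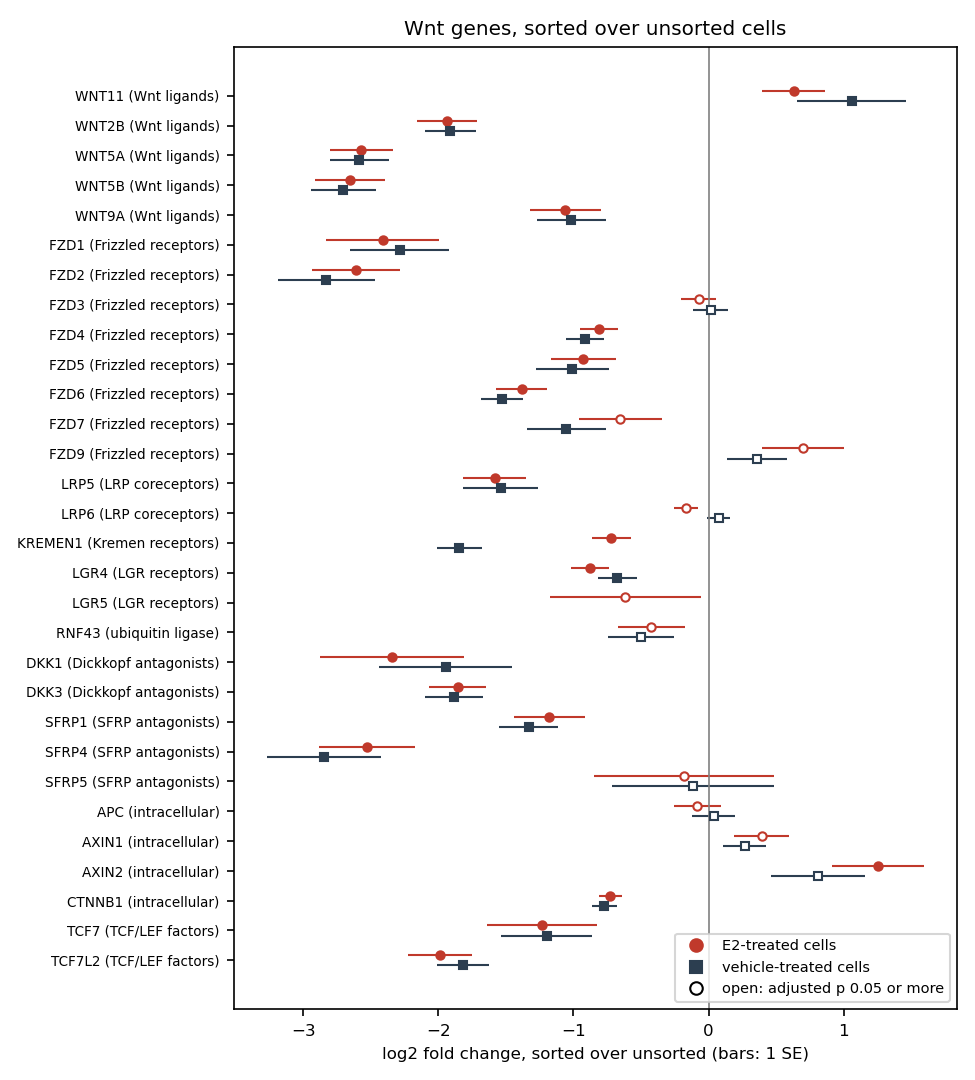
Log2 fold change of each tested Wnt gene, sorted over unsorted cells, in E2-treated (red circles) and vehicle-treated cells (dark squares), with bars of 1 SE, 6 libraries a group; filled symbols have an adjusted p under 0.05. Most points lie left of 0, from -2.85 for SFRP4 with vehicle (2 to 26 reads per sorted library), and WNT11 and AXIN2 lie to the right.

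The ligands that could be measured split in direction, with 4 lower and 1 higher in sorted cells under both treatments. WNT5A (ENSOARG00000015400), the ligand best known for beta-catenin-independent signalling, had lowest, median and highest levels of 5.13, 8.60 and 10.6 CPM in sorted E2 and 30.6, 49.8 and 74.0 CPM in unsorted E2 libraries. With vehicle the same 3 values were 5.07, 8.33 and 10.3 CPM in sorted and 25.5, 51.3 and 65.9 CPM in unsorted libraries. Every sorted library lay below every unsorted library, and the log2 fold change was -2.58 ± 0.22 (SE), adjusted p = 6.0e-07 with vehicle and -2.57 ± 0.23 with E2. WNT5B, its close relative, had 2.35, 4.33 and 5.78 CPM in sorted vehicle and 17.2, 29.7 and 37.4 CPM in unsorted vehicle libraries, again without overlap, and was 6.52-fold lower (log2 -2.70 ± 0.24 (SE), adjusted p = 8.2e-07) with vehicle and 6.28-fold lower with E2. WNT2B, usually counted among the ligands of the canonical branch, had 5.59, 8.44 and 10.5 CPM in sorted vehicle and 23.7, 30.2 and 39.0 CPM in unsorted vehicle libraries. Its groups did not overlap either, and it was 3.76-fold lower with vehicle (log2 -1.91 ± 0.19 (SE), adjusted p = 2.1e-06) and 3.82-fold lower with E2. WNT9A showed a smaller difference and overlapping ranges, with 1.83, 2.44 and 3.30 CPM in sorted vehicle and 2.98, 5.17 and 7.50 CPM in unsorted vehicle libraries (log2 -1.02 ± 0.26 (SE), adjusted p = 0.00453). In the shallow set alone its vehicle value was -0.75 (adjusted p = 0.0709) and in the deep set -1.15.

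WNT11, another ligand known mainly for beta-catenin-independent signalling, was the ligand with the opposite sign. Its levels were 1.86, 2.88 and 3.17 CPM (lowest, median and highest) in sorted E2 and 1.16, 1.84 and 2.11 CPM in unsorted E2 libraries. With vehicle they were 1.49, 2.28 and 3.15 CPM in sorted and 0, 1.25 and 1.60 CPM in unsorted libraries, where replicate 3 had no read of the gene. The ranges overlapped, but each sorted library exceeded the unsorted library of the same number, 6 of 6 under each treatment. The log2 fold change was 1.06 ± 0.40 (SE), adjusted p = 0.0403 with vehicle and 0.63 ± 0.23 (SE), adjusted p = 0.0336 with E2. Both calls lie near the threshold. With vehicle the adjusted p was 0.0735 without replicate 1, 0.0721 without replicate 2, 0.0579 without replicate 5 and 0.0345 without replicate 3, and without replicate 4 or 6 the gene did not pass the filter on low counts. With E2 it lay between 0.0379 and 0.108 when 1 replicate number was left out, and passed the threshold only without replicate 5. The sort difference with E2 was 0.89 in the shallow and 0.41 in the deep set, neither past the threshold.

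**Figure D2:**
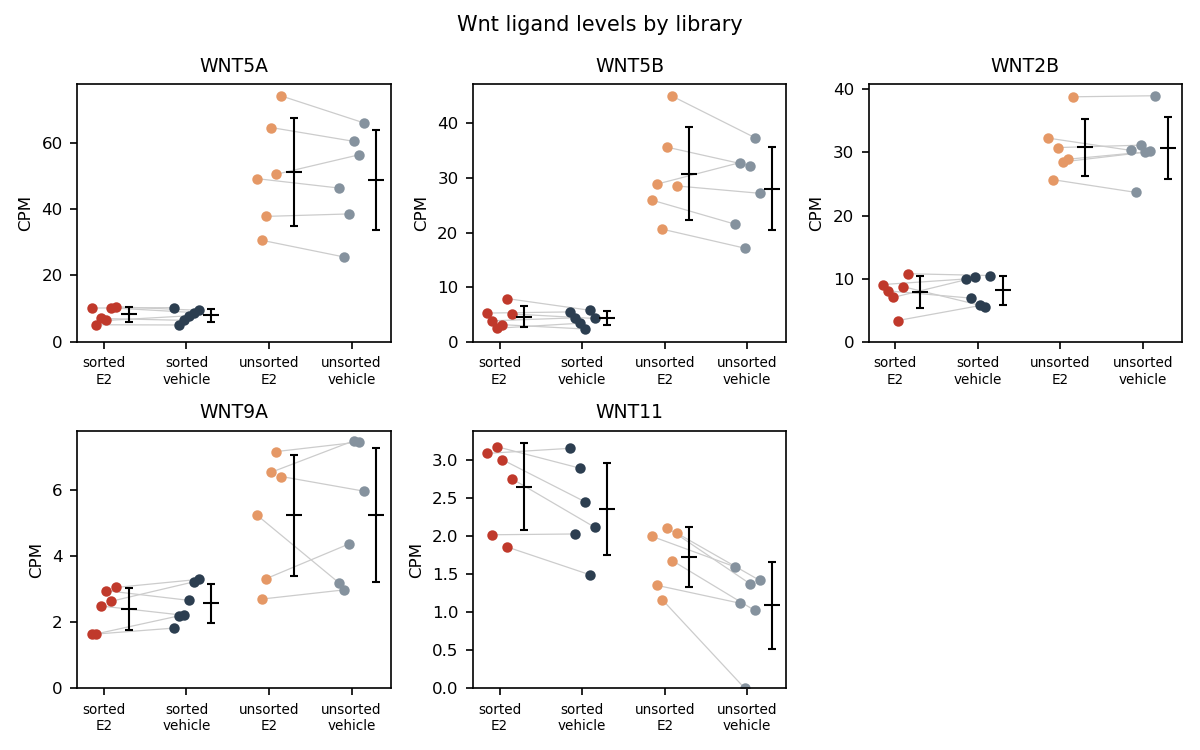
CPM of the 5 Wnt ligands tested between sorted and unsorted cells, 1 point per library, with gray lines joining same-numbered E2 and vehicle libraries and black bars for mean ± SD (n = 6). Sorted points lie below unsorted points for WNT5A, WNT5B and WNT2B, and the 2 preparations overlap for WNT9A and WNT11.

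Of the 8 Frizzled receptors, 6 were lower in sorted vehicle cells and 5 in sorted E2 cells, and none was higher without the block. FZD2 (ENSOARG00000008653) had 1.13, 1.79 and 2.40 CPM (lowest, median, highest) in sorted E2 and 5.41, 11.8 and 17.5 CPM in unsorted E2 libraries, and 0.845, 1.36 and 1.91 CPM in sorted vehicle against 3.39, 10.5 and 16.8 CPM in unsorted vehicle libraries. The groups did not overlap, and the log2 fold change was -2.83 ± 0.36 (SE), adjusted p = 2.0e-05 with vehicle and -2.61 ± 0.33 with E2. FZD1 levels were 4.90, 6.52 and 9.63 CPM in sorted vehicle and 14.0, 29.5 and 67.8 CPM in unsorted vehicle libraries (log2 -2.28 ± 0.37 (SE), adjusted p = 0.000162). For both receptors the vehicle difference was larger in the deep than in the shallow set, -2.75 and -1.36 for FZD1 and -3.22 and -2.08 for FZD2. Unsorted vehicle libraries had 40.9, 67.8 and 44.6 CPM of FZD1 in the deep and 15.4, 18.1 and 14.0 CPM in the shallow set. FZD6, a receptor known for planar polarity, had 19.2, 23.8 and 28.8 CPM in sorted vehicle and 55.8, 66.9 and 97.1 CPM in unsorted vehicle libraries, and was 2.88-fold lower with vehicle (log2 -1.53 ± 0.15 (SE), adjusted p = 2.5e-06) and 2.61-fold lower with E2. FZD5 had 4.81, 8.61 and 13.0 CPM in sorted vehicle and 9.18, 18.7 and 26.7 CPM in unsorted vehicle libraries. The FZD6 groups did not overlap while the FZD5 groups did, and FZD5 was 2.01-fold lower with vehicle (log2 -1.01 ± 0.27 (SE), adjusted p = 0.00634) and 1.90-fold lower with E2. FZD4, which also serves the non-Wnt ligand norrin, was 1.88-fold lower with vehicle and 1.75-fold lower with E2. FZD7 had 4.54, 5.32 and 8.04 CPM in sorted E2 and 3.72, 9.21 and 14.9 CPM in unsorted E2 libraries, and 3.38, 3.98 and 6.52 CPM in sorted vehicle against 4.59, 8.59 and 13.9 CPM in unsorted vehicle libraries. Its vehicle fold change was -1.05 ± 0.29 (SE), adjusted p = 0.00766 on the log2 scale, and its E2 value of -0.65 was not called (adjusted p = 0.0894; with the replicate number as a block -0.60, adjusted p = 0.0467). The E2 value of FZD7 was 0.086 in the shallow and -1.05 in the deep set. FZD3, also known for planar polarity, was at nearly equal levels, 41.7 ± 5.99 CPM in sorted vehicle and 41.8 ± 5.70 CPM in unsorted vehicle libraries (mean ± SD, n = 6 each; log2 0.016 ± 0.13). FZD9 stood on the other side, at 1.82 to 6.30 CPM in sorted E2 and 1.16 to 3.88 CPM in unsorted E2 libraries, with a log2 fold change of 0.70 ± 0.30 (SE), adjusted p = 0.0683, and 0.69 (adjusted p = 0.0282) with the block.

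Of the 2 coreceptors, LRP5 was lower in sorted cells and LRP6 was not called. LRP5 (ENSOARG00000015354) had 11.3, 15.2 and 26.6 CPM (lowest, median, highest) in sorted E2 and 34.6, 51.1 and 72.4 CPM in unsorted E2 libraries, and 7.94, 16.5 and 31.0 CPM in sorted vehicle against 41.2, 54.9 and 78.2 CPM in unsorted vehicle libraries, with no overlap. Its log2 fold change was -1.54 ± 0.28 (SE), adjusted p = 0.000406 with vehicle and -1.58 ± 0.23 with E2. LRP6, which has the same role in canonical signalling, averaged 82.1 ± 3.76 CPM in sorted vehicle and 79.0 ± 7.60 CPM in unsorted vehicle libraries, and its log2 fold change of 0.073 ± 0.08 was not called. LGR4, an R-spondin receptor, was 1.60-fold lower with vehicle (log2 -0.67 ± 0.14 (SE), adjusted p = 0.00125) and 1.84-fold lower with E2, without overlap. LGR5, the related receptor known as a stem cell marker in other tissues, reached 2.33 CPM at most and was tested with E2 alone (log2 -0.62 ± 0.56 (SE), adjusted p = 0.375). RNF43, the ligase that removes Frizzled from the surface, was not called (log2 -0.50 ± 0.24 with vehicle and -0.42 ± 0.25 with E2).

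Among the antagonists, every call was for a lower level in sorted cells. SFRP4 (ENSOARG00000008899), a secreted ligand-binding antagonist, had 0.601, 1.45 and 2.54 CPM (lowest, median, highest) in sorted E2 and 4.49, 9.21 and 13.2 CPM in unsorted E2 libraries, and 0.338, 1.11 and 1.87 CPM in sorted vehicle against 2.05, 8.67 and 11.1 CPM in unsorted vehicle libraries. The groups did not overlap, and the log2 fold change was -2.85 ± 0.42 (SE), adjusted p = 7.5e-05 with vehicle, the most negative of the tested members, and -2.53 ± 0.36 with E2. SFRP4 had 2 to 26 reads per sorted vehicle library and 11 to 403 per unsorted vehicle library. The filter on low counts can be passed through 1 group alone. Fold changes of members scarce in sorted cells therefore rest on few sorted reads. SFRP1, of the same family, had 1.86, 2.56 and 3.34 CPM in sorted vehicle and 4.20, 7.08 and 8.68 CPM in unsorted vehicle libraries. It was 2.51-fold lower with vehicle (log2 -1.33 ± 0.22 (SE), adjusted p = 0.00019) and 2.26-fold lower with E2, also without overlap. SFRP5 spread over 0.169 to 2.75 CPM in sorted vehicle and 0.373 to 2.48 CPM in unsorted vehicle libraries and was not called (log2 -0.12 ± 0.60). DKK3, a divergent Dickkopf relative, had 17.1, 25.4 and 31.1 CPM in sorted E2 and 56.4, 106 and 124 CPM in unsorted E2 libraries, and 16.1, 27.0 and 29.3 CPM in sorted vehicle against 54.1, 102 and 124 CPM in unsorted vehicle libraries, with no overlap (log2 -1.89 ± 0.22 (SE), adjusted p = 7.6e-06 with vehicle and -1.86 with E2). DKK1, the antagonist that binds LRP coreceptors, varied widely, with 2.88, 8.22 and 9.69 CPM in sorted vehicle and 5.59, 31.3 and 49.9 CPM in unsorted vehicle libraries. Its ranges overlapped, yet each sorted library was below the unsorted library of the same number under both treatments, and the log2 fold change was -1.94 ± 0.49 (SE), adjusted p = 0.00529 with vehicle and -2.34 ± 0.53 (SE), adjusted p = 0.00253 with E2. KREMEN1, the Dickkopf coreceptor, was lower in sorted cells too, with a log2 fold change of -1.84 ± 0.17 (SE), adjusted p = 9.2e-07 with vehicle and -0.72 ± 0.15 (SE), adjusted p = 0.00108 with E2, and is described with the E2 results.

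Inside the cell, CTNNB1 was lower in sorted cells, while APC and AXIN1 of its destruction complex were not called and AXIN2 was higher with E2. CTNNB1 (ENSOARG00000002885) had 391, 443 and 485 CPM (lowest, median, highest) in sorted E2 and 668, 743 and 870.1 CPM in unsorted E2 libraries, and 418, 428 and 482 CPM in sorted vehicle against 601, 778 and 886 CPM in unsorted vehicle libraries. The groups did not overlap, and it was 1.71-fold lower with vehicle (log2 -0.77 ± 0.09 (SE), adjusted p = 1.5e-05) and 1.65-fold lower with E2. The difference was nearly the same in both depth sets, -0.76 and -0.77 with vehicle. APC, a scaffold of the destruction complex, averaged 463 ± 60.6 CPM in sorted vehicle and 455 ± 113 CPM in unsorted vehicle libraries and was not called (log2 0.039 ± 0.16). AXIN1, the constitutive axin, was not called (log2 0.27 ± 0.16 (SE), adjusted p = 0.174 with vehicle and 0.39 ± 0.20 (SE), adjusted p = 0.119 with E2), but was higher with the block in both (adjusted p = 0.0124 and 0.000909), in 6 of 6 same-numbered pairs each time. AXIN2, both a component of the complex and a much used target gene of canonical signalling, had 2.38, 4.47 and 6.73 CPM in sorted E2 and 0.507, 2.15 and 3.08 CPM in unsorted E2 libraries, and 1.01, 4.21 and 5.08 CPM in sorted vehicle against 1.12, 2.15 and 2.98 CPM in unsorted vehicle libraries. It was 2.38-fold higher with E2 (log2 1.25 ± 0.34 (SE), adjusted p = 0.00745), in 6 of 6 same-numbered pairs but with overlapping ranges. With vehicle its log2 fold change was 0.81 ± 0.35 (SE), adjusted p = 0.0652, past the threshold with the block (0.78, adjusted p = 0.0118), and the set values were 0.58 in the shallow and 0.94 in the deep set.

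The measured TCF factors, which bring beta-catenin to DNA, were both lower. TCF7L2 (ENSOARG00000012352) had 0.601, 1.12 and 1.45 CPM (lowest, median, highest) in sorted E2 and 3.21, 4.18 and 4.83 CPM in unsorted E2 libraries, and 1.01, 1.30 and 1.59 CPM in sorted vehicle against 3.92, 4.64 and 5.59 CPM in unsorted vehicle libraries. The ranges did not overlap (log2 -1.82 ± 0.19 (SE), adjusted p = 3.5e-06 with vehicle and -1.99 ± 0.24 with E2). TCF7 had 0.498, 0.998 and 1.40 CPM in sorted vehicle and 0.875, 1.98 and 3.73 CPM in unsorted vehicle libraries, which overlap, with log2 -1.20 ± 0.34 (SE), adjusted p = 0.00878 with vehicle and -1.23 ± 0.41 (SE), adjusted p = 0.0213 with E2. With E2, TCF7 had 1 to 38 reads per sorted and 5 to 136 per unsorted library. The E2 call was lost without replicate 2 or without replicate 6, with an adjusted p of 0.0508 and 0.052 in that order. Without replicate 5 the gene did not pass the filter on low counts. LEF1 did not pass the filter on low counts in the sort comparisons, with at most 0.338 CPM in any sorted and 1.61 CPM in any unsorted library.

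**Figure D3:**
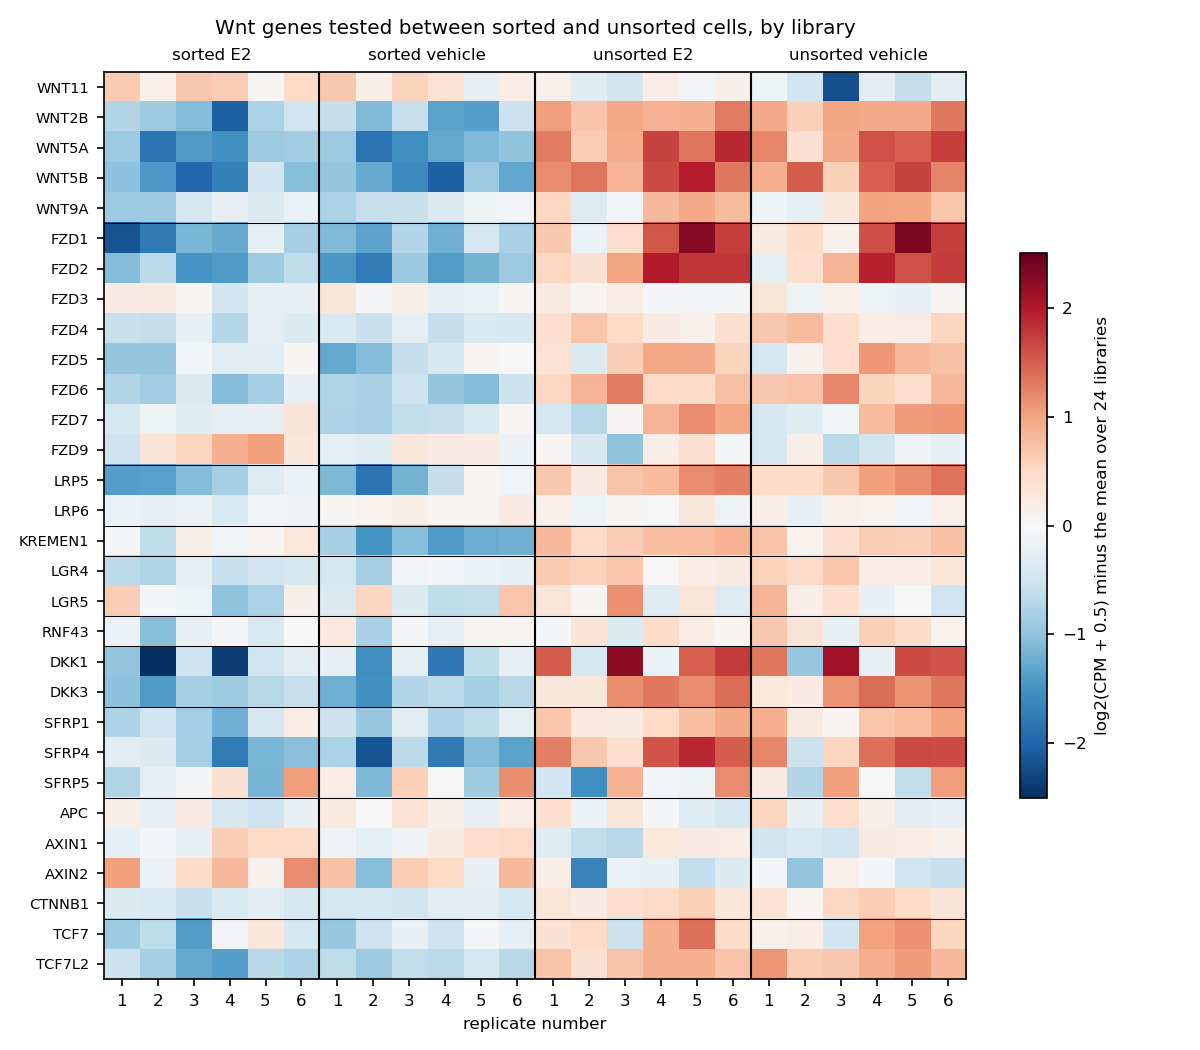
Log2(CPM + 0.5) of the 30 Wnt genes tested in a sort comparison, each row minus its mean over 24 libraries, with columns grouped as sorted E2, sorted vehicle, unsorted E2 and unsorted vehicle. Blue in the sorted columns and red in the unsorted columns mark the genes lower in sorted cells. WNT11, AXIN2, AXIN1 and FZD9 run the other way in their group means, and AXIN1 and FZD9 were not called without the replicate block.

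Genes elsewhere in the pathway were called in both directions. Of 109 such genes named in 4 lists, 91 had a count and 81 were tested, and 23 were lower and 18 higher in sorted vehicle cells, beside 25.8% lower and 24.4% higher over all genes. With E2 the counts were the same, 23 lower and 18 higher. Of 14 tested genes for Wnt production and ligand binding, 6 were lower and none was higher with vehicle (median log2 fold change 0.074). They include CTHRC1, a secreted protein that binds Wnt and Frizzled (log2 -2.99 ± 0.34), the Wnt-inhibitory membrane protein TPBG (-1.92 ± 0.15), the secreted antagonist WIF1 (-0.97 ± 0.27) and WLS, the carrier that brings Wnt ligands to the cell surface (-0.78 ± 0.10). Of 19 tested planar polarity and beta-catenin-independent genes, 7 were lower and 5 higher (median -0.16). Lower were the WNT5A receptor ROR2 (-2.24 ± 0.25), the atypical cadherin CELSR1 (-2.18 ± 0.24) and the core polarity genes VANGL1 (-1.50 ± 0.18) and PRICKLE1 (-1.29 ± 0.11), among others. Higher were CELSR3 (1.06 ± 0.24), the cilium-linked effectors INTU (0.58 ± 0.08) and WDPCP (0.56 ± 0.17) and the Dishevelled partner DAAM1 (0.40 ± 0.12), among others. Of 32 tested cytoplasmic and nuclear genes, 9 were higher and 3 lower (median 0.079). The higher ones include CXXC4, which binds Dishevelled (1.16 ± 0.22), the beta-catenin-binding CHD8 (0.73 ± 0.09), the deubiquitinase USP34 (0.55 ± 0.10) and the TCF corepressor TLE4 (0.49 ± 0.10). The lower ones were CCDC88C, a Dishevelled-binding protein (-1.99 ± 0.14), the corepressor TLE3 (-1.62 ± 0.17) and DACT3 (-1.11 ± 0.37). Of 16 tested genes known as canonical targets in other tissues, 7 were lower (median -0.78), among them the growth regulator MYC (-2.08 ± 0.11), the adhesion receptor CD44 (-2.11 ± 0.17) and the ephrin receptor EPHB3 (-2.14 ± 0.18). The 4 higher ones include TNFRSF19 (1.14 ± 0.27), NRCAM (0.86 ± 0.12) and TRIB2 (0.46 ± 0.13). SOX9 is on this list and on the folliculostellate marker list and was lower (log2 -2.62 ± 0.27).

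The second question was which Wnt genes respond to 6 hours of E2, in sorted and in unsorted cells. In sorted cells 1 of 29 tested members was called without the replicate block, KREMEN1, which rose, while 1.37% of all 14334 genes tested were called (1.11% higher and 0.258% lower). With the block, 3 members were called higher and 3 lower, beside 13.2% of all genes tested. The median log2 fold change without the block, E2 over vehicle, was 0.050 among the tested members and -0.00039 among all genes tested. In unsorted cells none of 34 tested members was called by edgeR, with or without the replicate block, while 0.245% of 15083 genes were called without it and 5.24% with it. Their log2 fold changes ran from -0.25 to 0.64, with a median of -0.0036, against -0.010 over all genes tested. At an unadjusted p under 0.05, 3 members passed in sorted and 0 in unsorted cells without the block, and 8 and 5 with it. Of all genes tested, 1024 of 14334 in sorted and 425 of 15083 in unsorted cells passed without the block, and 3394 and 2310 with it. DESeq2 also called none in unsorted cells. The 2 E2 comparisons share no libraries with each other, but each uses libraries that also enter the sort comparisons above. Of the 9 fibroblast and pericyte markers tested, none was called with E2 in either preparation, and of 5 gonadotrope markers 1 was higher with E2 in each. With the block, 1 gonadotrope marker was higher and 1 lower with E2 in each preparation. Of the 6 markers of other hormone cells 1 was lower with E2 in sorted cells, and with the block 2 were lower in sorted and 1 in unsorted cells, as were 2 of 7 folliculostellate and stem cell markers in sorted cells. Their part in the E2 results was not tested.

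KREMEN1 (ENSOARG00000003201) encodes a transmembrane receptor that binds Dickkopf proteins and, with them, takes LRP coreceptors off the cell surface. In replicates 1 to 6 it had 10.2, 6.60, 11.8, 9.94, 10.9 and 12.7 CPM in sorted E2 libraries, against 5.64, 3.38, 4.76, 3.63, 4.14 and 4.28 CPM in sorted vehicle libraries. Every E2 library was above every vehicle library, as for 1.03% of all genes tested, and the ratio of same-numbered libraries ran from 1.80 to 2.96. Mean levels were 10.3 ± 2.10 CPM with E2 and 4.30 ± 0.818 CPM with vehicle (SD, n = 6 each), from raw counts of 36 to 290 and 20 to 101 reads per library. The log2 fold change was 1.30 ± 0.18 (SE), adjusted p = 0.00171, a 2.47-fold rise, and with the replicate block it was 1.37 (adjusted p = 4.0e-08). It was 1.07 in the shallow set (adjusted p = 0.00198) and 1.50 in the deep set (6.4e-06). In unsorted cells KREMEN1 had 18.7, 14.9, 16.5, 18.1, 18.1 and 19.6 CPM with E2, against 17.4, 11.2, 14.2, 16.6, 16.0 and 17.7 CPM with vehicle. These ranges overlap, although all 6 same-numbered ratios exceeded 1, from 1.08 to 1.33, and the log2 fold change of 0.18 ± 0.12 was not called (adjusted p = 1.0; 0.189 with the block).

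The difference between the 2 E2 effects on KREMEN1 was tested as an interaction over all 24 libraries and was 1.13 ± 0.21 (SE), adjusted p = 0.0455, or 1.15 ± 0.14 with an adjusted p of 0.000288 with the block. It was 1 of 4 genes called among 15134 (0.0264%, and 0.463% with the block), and no other member was called in either fit. Without the block the call lies close to the threshold. It was lost when replicate 1, 3, 4, 5 or 6 was left out (adjusted p = 0.171, 0.457, 0.776, 0.731 and 0.602), while the difference itself stayed between 1.06 and 1.19. The leave-out fits that lost it called 0 genes over the whole table. In descending order, the group means were those of unsorted E2, unsorted vehicle, sorted E2 and sorted vehicle libraries. Unsorted E2 and unsorted vehicle libraries overlapped, as did unsorted vehicle and sorted E2 libraries, and sorted E2 lay above sorted vehicle without overlap. The sorted over unsorted ratio of same-numbered libraries was 0.444 to 0.716 with E2 and 0.218 to 0.336 with vehicle, without overlap. In the authors' deposited tables KREMEN1 has a log2 fold change with E2 of 1.33 in sorted cells, at a false discovery rate of 0.000183, and of 0.173 in unsorted cells, at a rate of 1.0. At a false discovery rate under 0.05, those tables call 1 of 40 listed members with E2 in sorted cells, 0 of 46 in unsorted cells and 25 of 45 between vehicle preparations. The share of all genes called in those tables was not computed, so these counts give no result about the members as a set. In the vehicle sort fit made here, 24.4% of all genes tested were called higher and 25.8% lower.

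**Figure D4:**
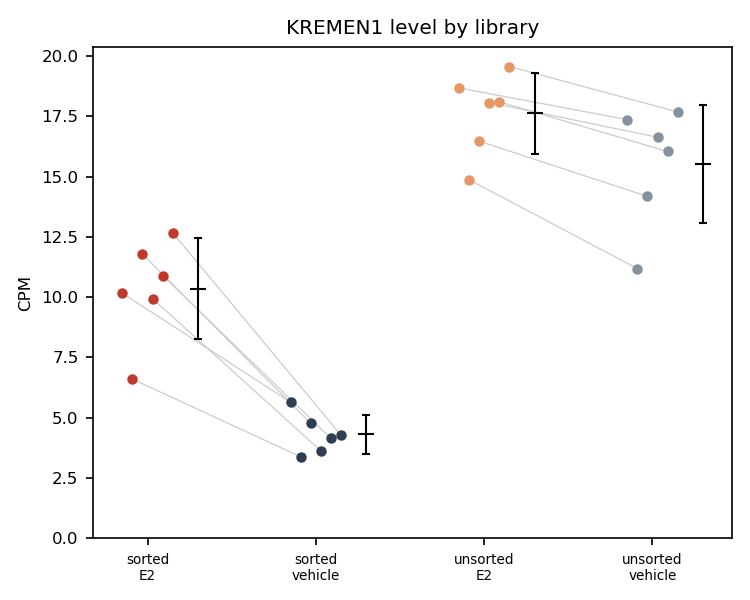
KREMEN1 in CPM in each of the 24 libraries, with gray lines joining same-numbered E2 and vehicle libraries and black bars for mean ± SD (n = 6). Sorted E2 points, 6.60 to 12.7 CPM, all lie above sorted vehicle points, 3.38 to 5.64 CPM, and unsorted points lie between 11.2 and 19.6 CPM.

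With the replicate number as a block, 5 more members were called with E2 in sorted cells, while the share of all genes called was 7.03% higher and 6.2% lower. FZD9, a Frizzled receptor, had 1.82, 3.99 and 6.30 CPM (lowest, median, highest) in sorted E2 and 2.20, 2.91 and 3.57 CPM in sorted vehicle libraries. It was higher in 5 of 6 same-numbered pairs (log2 0.66 ± 0.15, adjusted p = 0.00389 with the block and 0.643 without), and the set values were 0.29 in the shallow and 0.76 in the deep set. FZD7 had 4.54, 5.32 and 8.04 CPM with E2 and 3.38, 3.98 and 6.52 CPM with vehicle, higher in 6 of 6 pairs (log2 0.37 ± 0.12, adjusted p = 0.04 with the block and 0.763 without). LRP6, the canonical coreceptor, had 58.9, 68.9 and 72.6 CPM with E2 and 78.2, 81.0 and 88.0 CPM with vehicle. These ranges did not overlap, as for 0.579% of all genes tested with E2 lower, and LRP6 fell with the block (log2 -0.25 ± 0.05, adjusted p = 0.000707, and 0.105 without the block), which was -0.24 in the shallow and -0.26 in the deep set. APC had 293, 368 and 488 CPM with E2 and 367, 477 and 542 CPM with vehicle, which overlap. With the block, its log2 fold change was -0.26 ± 0.05 (adjusted p = 0.000771, and 0.928 without), lower in 6 of 6 pairs. LGR4 had 48.4, 57.1 and 70.7 CPM with E2 and 46.1, 72.0 and 79.4 CPM with vehicle, also overlapping, and a log2 fold change with the block of -0.22 ± 0.06 (adjusted p = 0.0114, and 0.9999 without), lower in 5 of 6 pairs. None of these 5 was called in the interaction test with the block (adjusted p = 1.0, 1.0, 0.699, 1.0 and 1.0 in the order named). CTNNB1 (log2 0.027 ± 0.07) and AXIN2 (0.35 ± 0.35; 0.38, adjusted p = 0.0736 with the block) were not called with E2 in sorted cells in either fit.

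**Figure D5:**
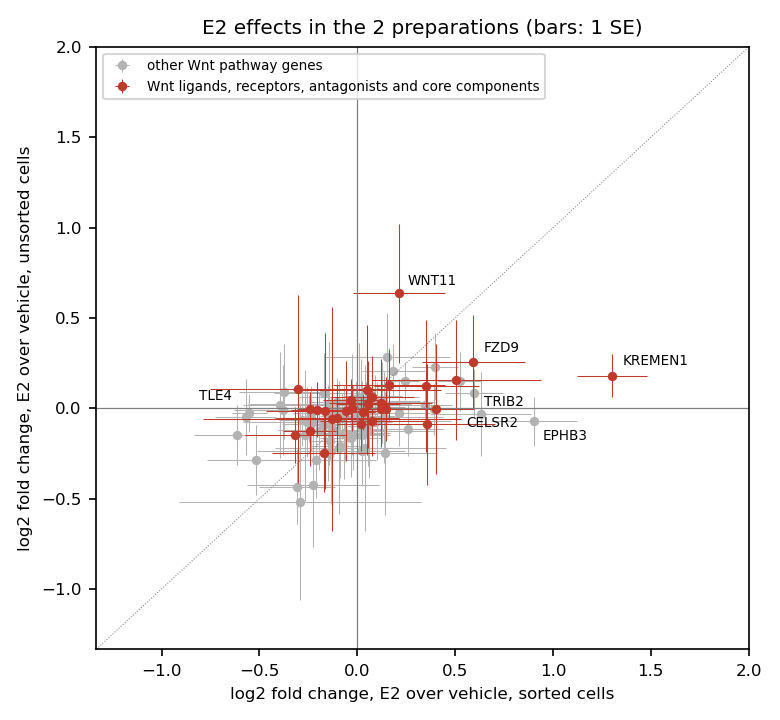
Log2 fold change, E2 over vehicle, in sorted cells (horizontal) and unsorted cells (vertical), with bars of 1 SE, for the Wnt genes described (red) and the other Wnt pathway genes (gray) tested in both; the dotted line marks equal effects. KREMEN1 lies at 1.30 on the horizontal and 0.18 on the vertical axis, and the other Wnt genes described lie between -0.32 and 0.59 on the horizontal axis.

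The ligands gave no E2 call in either preparation or fit. WNT5A, WNT5B, WNT2B and WNT9A had log2 fold changes between -0.06 and 0.16 in sorted cells, with standard errors of 0.21, 0.29, 0.26 and 0.22 in that order. WNT11 in unsorted cells had 1.16, 1.84 and 2.11 CPM (lowest, median, highest) with E2 and 0, 1.25 and 1.60 CPM with vehicle, and each E2 library exceeded the vehicle library of the same number. Its log2 fold change of 0.64 ± 0.38 did not pass (adjusted p = 1.0, and 0.102 with the block). The antagonists DKK1, DKK3, SFRP1, SFRP4 and SFRP5 were not called, and neither were the TCF factors or, in unsorted cells, LEF1 (log2 0.11 ± 0.61).

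Among the other pathway genes, 2 of 80 tested (2.5%) changed with E2 in sorted cells without the block, beside 1.37% of all genes tested. TLE4, a corepressor that binds TCF factors, fell to 60.5 ± 6.99 CPM with E2, against 90.4 ± 8.92 CPM with vehicle (SD, n = 6 each; log2 -0.55 ± 0.09 (SE), adjusted p = 0.0058), lower in 6 of 6 pairs without overlap. Unsorted libraries averaged 64.1 ± 8.83 CPM of TLE4 under E2 and 65.2 ± 9.10 CPM under vehicle, and the interaction was -0.53 ± 0.14 (adjusted p = 0.457; -0.53 and 0.0326 with the block). CELSR2, a planar polarity cadherin, rose to 33.8 ± 3.19 CPM with E2, against 24.0 ± 3.95 CPM with vehicle (log2 0.52 ± 0.11 (SE), adjusted p = 0.0299), and its interaction was not called (0.37, adjusted p = 1.0). EPHB3, an ephrin receptor known as a canonical target in the intestine, averaged 5.64 ± 1.69 CPM in sorted E2 and 3.10 ± 0.656 CPM in sorted vehicle libraries and passed only with the block (log2 0.96 ± 0.14, adjusted p = 6.5e-05, and 0.0705 without), as did its interaction (0.98, adjusted p = 0.0331, and 0.403 without). With the block, 21 of 80 tested genes of the 4 lists were called with E2 in sorted cells, 9 higher and 12 lower, while 13.2% of all genes tested were. Among them the kinase NLK (0.39 ± 0.05), the beta-catenin cofactor BCL9 (0.25 ± 0.04), PRICKLE1 (0.36 ± 0.07), the antagonists APCDD1 (0.67 ± 0.21) and TPBG (0.44 ± 0.10) and the target genes TRIB2 (0.61 ± 0.10) and BAMBI (0.27 ± 0.09) rose. PRICKLE2 (-0.59 ± 0.11), the Frizzled partner TSPAN12 (-0.59 ± 0.13), MEST (-0.24 ± 0.04), WLS (-0.17 ± 0.04), DACT1 (-0.29 ± 0.09), PYGO1 (-0.27 ± 0.08), the kinases GSK3B (-0.15 ± 0.04) and TNIK (-0.15 ± 0.04) and the target CLDN1 (-0.40 ± 0.10) fell. In unsorted cells 0 of 83 was called without the block by edgeR, 1 of them at an unadjusted p under 0.05. With the block 5 were called (6.02%, close to the 5.24% of all genes tested). Of these 1 was higher, NLK (0.25 ± 0.05), and 4 were lower, among them TNIK (-0.20 ± 0.05), DAAM1 (-0.25 ± 0.05) and NRCAM (-0.28 ± 0.05). NRCAM fell with the block in sorted cells as well (log2 -0.16 ± 0.04), and of these genes only TLE4 and EPHB3 were called in the interaction with the block.

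The remaining members were at low levels. Of the 52, 34 passed the filter on low counts in at least 1 comparison and 18 in none. Those 18 include 11 ligands (WNT1, WNT2, WNT3, WNT3A, WNT4, WNT6, WNT8A, WNT8B, WNT9B, WNT10A and WNT16), RSPO1, RSPO3, RSPO4, DKK2, SFRP2, KREMEN2 and NKD1. Their highest group mean was 0.535 CPM, for WNT4 in sorted vehicle libraries, where it ranged over 0.166 to 1.35 CPM, against 0 to 0.512 CPM in unsorted vehicle libraries. WNT9B had 5 reads and WNT16 7 reads over all 24 libraries, and a difference in such genes was not detectable at this depth. WNT7A, WNT7B, RSPO2 and LEF1 were tested in unsorted cells with E2 alone. The authors' deposited table, which lists these low genes, gives for vehicle, as unsorted over sorted, log2 fold changes of 1.92 for LEF1 (false discovery rate 0.0285), 1.97 for WNT7B (0.000975), 1.77 for RSPO2 (0.00567) and 2.00 for DKK2 (0.0392), all lower in sorted cells. These values rest on few reads. For LEF1, sorted over unsorted ratios of same-numbered vehicle libraries ran from 0 to 1.81. DKK2 had 5 reads over all sorted vehicle libraries. With E2 its mean was higher in sorted (0.380 CPM) than in unsorted libraries (0.249 CPM). WNT7B ranged over 0 to 0.545 CPM in sorted E2 and 0.499 to 1.03 CPM in unsorted E2 libraries, and 0.127 to 0.507 CPM in sorted vehicle and 0.525 to 1.47 CPM in unsorted vehicle libraries.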

How the data were processed

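RNA-seq was made from 24 libraries of cultured sheep pituitary cells, from 500 ng of total RNA each per the labels' protocols. The authors deposited raw counts of reads per Ensembl sheep gene, 1 column per library, made with featureCounts 1.5.1 per the submitters' processing notes. No source used here names the aligner, the build of the genome or a setting for strand, so reads of overlapping or antisense genes cannot be told apart. The authors also deposited tables of their own comparisons with log2 fold changes and adjusted p-values per the file headers, and those values are printed only where the authors' deposited table is named.

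Members were all features with a name matching the Wnt rule, and they, the other gene lists and the marker lists were chosen with earlier results of these data known. The text gives library values for members called with at least a 2-fold sort difference or in any E2 comparison or the interaction, without or with the replicate block, and for CTNNB1, APC, AXIN2 and LEF1 whatever their values. Other members are given by means, ranges or tests. From each other list it takes up to 4 genes per direction of the vehicle sort comparison and every gene called with E2, with 1 exception that is not reported here.

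Each comparison was fitted over its 12 libraries, and the interaction over all 24, with edgeR 4.0.16 in R 4.3.3 (TMM scaling, filterByExpr with a minimum count of 10, robust quasi-likelihood test, limma 3.58.1). P-values were Benjamini-Hochberg adjusted over all genes tested at a threshold of 0.05, and standard errors are the log2 fold change divided by the root of the F statistic. The method was tested on simulated data. Alternatives were DESeq2 1.42.0, RLE scaling, no filter, 1 fit over all libraries and the replicate number as a block. Each depth set was also fitted alone, always with that block. No label says that equal numbers share a culture, so fits without the block use no pairing. The deviations of same-numbered libraries from their group means correlated at 0.291 to 0.859, over 0.1 in 24 of 24 pairs of libraries. The blocked fit, which takes same-numbered libraries as paired, is therefore given where it changes a call. No column of library values was left unused (0).

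Total counts of 4185088 to 37042448 reads per library limit what can be said of genes at low levels, and the errors given cover the spread between libraries.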

Additional observations from a re-analysis of the deposited data

Results flagged for a closer look

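The E2 effect on KREMEN1 was called different between preparations, with an interaction of 1.13 on the log2 scale (edgeR, adjusted p = 0.0455, and 0.000288 with the replicate block). Without the block the call was lost when replicate 1, 3, 4, 5 or 6 was left out, in fits that called 0 genes over the whole table. Unsorted cells are a mixed culture with a higher KREMEN1 level, and the part of this in the difference was not tested. Same-numbered ratios of E2 over vehicle were 1.80 to 2.96 in sorted and 1.08 to 1.33 in unsorted cells.

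Sorted E2 replicate 6 had 8.04 CPM of FZD7, and the next library of that group had 5.68 and the lowest 4.54 CPM. Unsorted vehicle replicate 3 had 0 CPM of WNT11, against 1.02 to 1.60 CPM in the other 5 libraries of that group, and without replicate 3 the vehicle sort difference of WNT11 was 0.80 on the log2 scale. These are the 2 libraries, in 100 groups of 6 over 25 members, whose gap to the next library passed Dixon's 95% limit, which chance passes in about 1 of 20 groups.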

How the results depend on the processing

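Over the alternatives tried, 88 counts and medians of members stayed close to the reported value, 10 counts were higher, 4 were lower and 3 medians moved by more than the spread between replicates; of the values of named members, 469 kept their direction and call, 18 gained a call, 10 lost it and 10 changed sign. The cause was not tested. With the replicate block, members called higher in sorted cells numbered 3 with vehicle and 4 with E2, FZD7 joined the members called lower with E2 (20 in all, 19 without the block), and with E2 in sorted cells 3 were called higher and 3 lower; the report names the members, and the block changed no other call of a member. In replicates 4 to 6 alone, 4 members were called higher with the sort under each treatment, and 2 higher and 3 lower with E2 in sorted cells. Over all genes tested, the sort calls higher in that set were 5104 of 15625 with vehicle and 5050 of 15606 with E2. DESeq2 called 2 members higher with vehicle and 1 with E2 in the sort comparisons, and 1 lower with E2 in sorted cells. Its sort calls higher over all genes were 3786 of 14468 with vehicle and 3948 of 14545 with E2. The interaction count of members called higher was 0 with RLE scaling, without the filter and in replicates 1 to 3 alone. Without the filter, more low genes entered and the medians were -0.77 and -0.70 for the sort with vehicle and E2, and -0.058 for the interaction.

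Signs changed only for values that were not called. In replicates 1 to 3 alone, these were APC with the vehicle sort (-0.057), FZD7 with the E2 sort (0.086), and FZD9 (-0.17) and LGR4 (0.046) with E2 in unsorted cells. In replicates 4 to 6 alone, they were AXIN2 (0.0028), FZD7 (0.030) and LRP6 (0.011) with E2 in unsorted cells and CTNNB1 in the interaction (-0.0094). FZD7 with E2 in unsorted cells was 0.0063 with the block and 0.00010 without the filter.

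Leaving out 1 replicate number at a time, an alternative chosen after seeing the data like the block within each preparation (KREMEN1 interaction 1.21), gave 0 to 1 members higher and 19 to 21 lower for the vehicle sort, 1 to 2 higher and 18 to 20 lower for the E2 sort, 1 higher and 0 lower with E2 in sorted cells, 0 in unsorted cells, and 0 to 1 higher in the interaction. In the leave-out fits, 2690 to 3402 of all genes were higher and 2990 to 3780 lower for the vehicle sort (13397 to 15171 tested). For the E2 sort, 2833 to 3538 were higher and 2987 to 3766 lower (13383 to 15256 tested). Over all genes, E2 calls in sorted cells numbered 159 higher and 37 lower, and 1008 and 888 with the block, 300 and 102 with DESeq2, 389 and 174 in replicates 1 to 3 and 717 and 560 in replicates 4 to 6. In unsorted cells they numbered 32 and 5, and 432 and 358 with the block, 101 and 23 with DESeq2, 57 and 10 in replicates 1 to 3, 399 and 331 in replicates 4 to 6 and 61 and 12 in the fit over all libraries. The interaction gave 4 and 0 genes, and 50 and 20 with the block, 13 and 4 with DESeq2, 0 and 0 without the filter, 1 and 1 in replicates 1 to 3, 36 and 11 in replicates 4 to 6 and 251 and 106 with the block within each preparation. In the leave-out fits, E2 calls in sorted cells over all genes numbered 75 to 141 higher and 9 to 29 lower (13294 to 14874 tested). Leave-out calls in unsorted cells numbered 3 to 29 higher and 0 to 2 lower (13402 to 15832 tested). The leave-out interaction fits called 1 gene without replicate 2 and 0 genes otherwise (13985 to 15928 tested).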
